A study of Mus musculus with 15 samples.

Results

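The matrix-binding integrin subunits of the vessel wall are described here in mouse cerebral vessels. They are the 10 genes Itgav, Itgb3, Itgb5, Itgb8, Itga1, Itga5, Itga6, Itga7, Itgb1 and Itgb4, taken by gene name from an expression table of 22526 gene symbols, and all 10 passed the filter on low values that left 13082 genes for testing. Expression is given as FPKM, read fragments per kilobase of transcript after scaling for library size, a unit that corrects for gene length and so allows levels of different genes to be set side by side. FPKM is the name the authors gave the values, but 5.99% of them lie below 0, which an FPKM cannot, and the step behind those values is not known, so the scale is not certain. The vessels came from wild-type C57BL/6 mice aged 8 months, and 3 groups of 5 libraries were sequenced in bulk. All mice had an adeno-associated virus (AAV) injected stereotactically into the brain. In the GFP-Veh group the virus was AAV-GFP, coding for green fluorescent protein, and the mice were given saline. In the GFP-AL group the virus was the same and the mice were given AngII (angiotensin II) with L-NAME, a blocker of nitric oxide synthases. In the LH3-AL group the virus was AAV-LH3, which supplies the collagen lysyl hydroxylase LH3, with the same AngII and L-NAME. The labels name no LH3 virus group on saline, no promoter for either virus and no pooling, and they do not say that each library was a mouse of its own, so p-values measure the spread between libraries, which may in part be technical.

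Integrins are transmembrane receptors made of an alpha and a beta chain, and the pairing decides which matrix protein is bound. Alpha v pairs with beta 3, beta 5 or beta 8 to bind vitronectin, fibronectin and the latent form of TGF-beta, alpha 5 beta 1 binds fibronectin, alpha 1 beta 1 binds type IV collagen, and alpha 6 and alpha 7 bind laminin with beta 1 or, for alpha 6, beta 4. In brain vessels these receptors hold endothelial cells, mural cells and astrocyte endfeet to the basement membrane, and alpha v beta 8 on neural cells is known for activating TGF-beta beside developing vessels.

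Promoter sequence, which the files do not measure, is shown for 4 genes that stand for the patterns described below: Itgav, with the largest change of the 10, Itga5, a beta 1 partner that changed the same way, and Itgb5 and Itgb1, which passed the test in no comparison. The windows are the 250 bases before the RefSeq start site on GRCm38.p6, written 5′ to 3′ on the strand of the gene, and capitals mark GGGCGG, the core of the GC box, or its reverse complement CCGCCC.
Itgav promoter, chr2:83724147-83724396, plus strand: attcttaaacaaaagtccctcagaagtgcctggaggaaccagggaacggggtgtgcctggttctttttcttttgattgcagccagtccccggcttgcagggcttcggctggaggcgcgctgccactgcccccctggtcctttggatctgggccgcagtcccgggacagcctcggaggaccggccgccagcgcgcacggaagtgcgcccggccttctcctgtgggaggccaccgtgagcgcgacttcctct
Itga5 promoter, chr15:103366792-103367041, minus strand: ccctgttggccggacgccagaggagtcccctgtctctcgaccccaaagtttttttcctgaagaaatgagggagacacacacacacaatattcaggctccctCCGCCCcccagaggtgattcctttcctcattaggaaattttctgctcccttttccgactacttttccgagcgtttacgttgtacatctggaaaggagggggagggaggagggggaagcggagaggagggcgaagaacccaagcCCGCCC
Itgb5 promoter, chr16:33829415-33829664, plus strand: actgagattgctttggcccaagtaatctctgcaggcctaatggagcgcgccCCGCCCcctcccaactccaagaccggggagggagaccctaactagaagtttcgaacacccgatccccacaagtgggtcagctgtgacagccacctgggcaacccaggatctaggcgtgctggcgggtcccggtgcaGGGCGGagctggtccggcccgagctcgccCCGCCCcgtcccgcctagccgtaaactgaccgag
Itgb1 promoter, chr8:128685404-128685653, plus strand: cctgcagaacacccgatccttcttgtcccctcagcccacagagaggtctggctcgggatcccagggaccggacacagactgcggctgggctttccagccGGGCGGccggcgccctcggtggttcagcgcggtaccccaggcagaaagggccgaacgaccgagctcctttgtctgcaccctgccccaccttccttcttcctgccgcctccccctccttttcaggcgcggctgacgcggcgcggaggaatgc
RefSeq promoters were found for 6 of the 10 genes, these 4 and those of Itgb8 and Itga1. On both strands, GGGCGG had 3 matches in the Itgb5 window, 2 in Itga5 and 1 in Itgb1, and 0 in Itgav, Itgb8 and Itga1. Of 32851 promoter windows of the same length, 32.7% held it. The ETS core CCGGAAG (in 6.9% of all windows), the AP-1 site TGANTCA (6.7%) and the STAT site TTCNNNGAA (7.0%) had 0 matches in all 6 windows, so no motif overlapped another. G and C made up 64.4% of the Itgav window, 55.6% of Itga5, 65.2% of Itgb5 and 68.0% of Itgb1, against a median of 52.4% over all windows. Neither measure ordered the genes by how they changed in the comparisons that follow.

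Depth, estimated from the step between low values, was 13.6 to 31.7 M fragments per library (M for mega), and GFP-Veh replicates 1 to 4, at 13.6 to 16.0 M, were the shallowest. Correlations between libraries of a group ran from 0.932 to 0.987. Plod3, the gene for LH3, read 16.9, 16.4, 17.0, 17.6 and 16.0 FPKM in GFP-Veh replicates 1 to 5, 12.2, 14.6, 13.6, 14.4 and 14.9 in those of GFP-AL, and 21.2, 21.3, 22.9, 19.5 and 23.2 in LH3-AL. Every LH3-AL library was above every other library. By limma the log2 difference was 0.60 ± 0.08 (SE) between LH3-AL and GFP-AL (adjusted p = 0.000107), -0.25 between GFP-AL and GFP-Veh (called lower, adjusted p = 0.0216) and 0.35 between LH3-AL and GFP-Veh (not called, adjusted p = 0.0628). An exact two-sided permutation test gave p = 0.00794 in each of the 3, the lowest possible with 5 against 5. All 10 endothelial, all 8 smooth muscle and all 8 pericyte markers were detected in every group, as were all 7 choroid plexus markers, although the protocol removed choroid plexus.

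In GFP-Veh vessels Itgb1, the shared partner of most alpha chains, was the most abundant of the 10 transcripts at 95.1 ± 9.25 FPKM (SD, n = 5). Itgb5 followed at 34.5 ± 1.70 FPKM, and the ranges of the 5 libraries did not overlap between Itgb1 and Itgb5 or between Itgb5 and the next gene. Itga7 (25.4 ± 2.33), Itga6 (21.6 ± 6.77), Itga1 (19.7 ± 4.44) and Itga5 (18.7 ± 1.12 FPKM) formed a middle group in which each gene overlapped its neighbour. A gap without overlap separated Itga5 from the low group, where Itgb4 (6.90 ± 1.26), Itgav (5.83 ± 1.11), Itgb8 (4.21 ± 1.22) and Itgb3 (2.68 ± 0.295 FPKM) again overlapped from neighbour to neighbour. LH3-AL vessels kept this order of all 10 genes. In GFP-AL vessels Itga6 stood above Itga7, Itga1 and Itga5 no longer overlapped, and Itgav fell from eighth to ninth place, below Itgb8, so that Itgav (1.22 ± 0.429) and Itgb3 (1.17 ± 0.133 FPKM) were the lowest and overlapped.

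**Figure D1:**
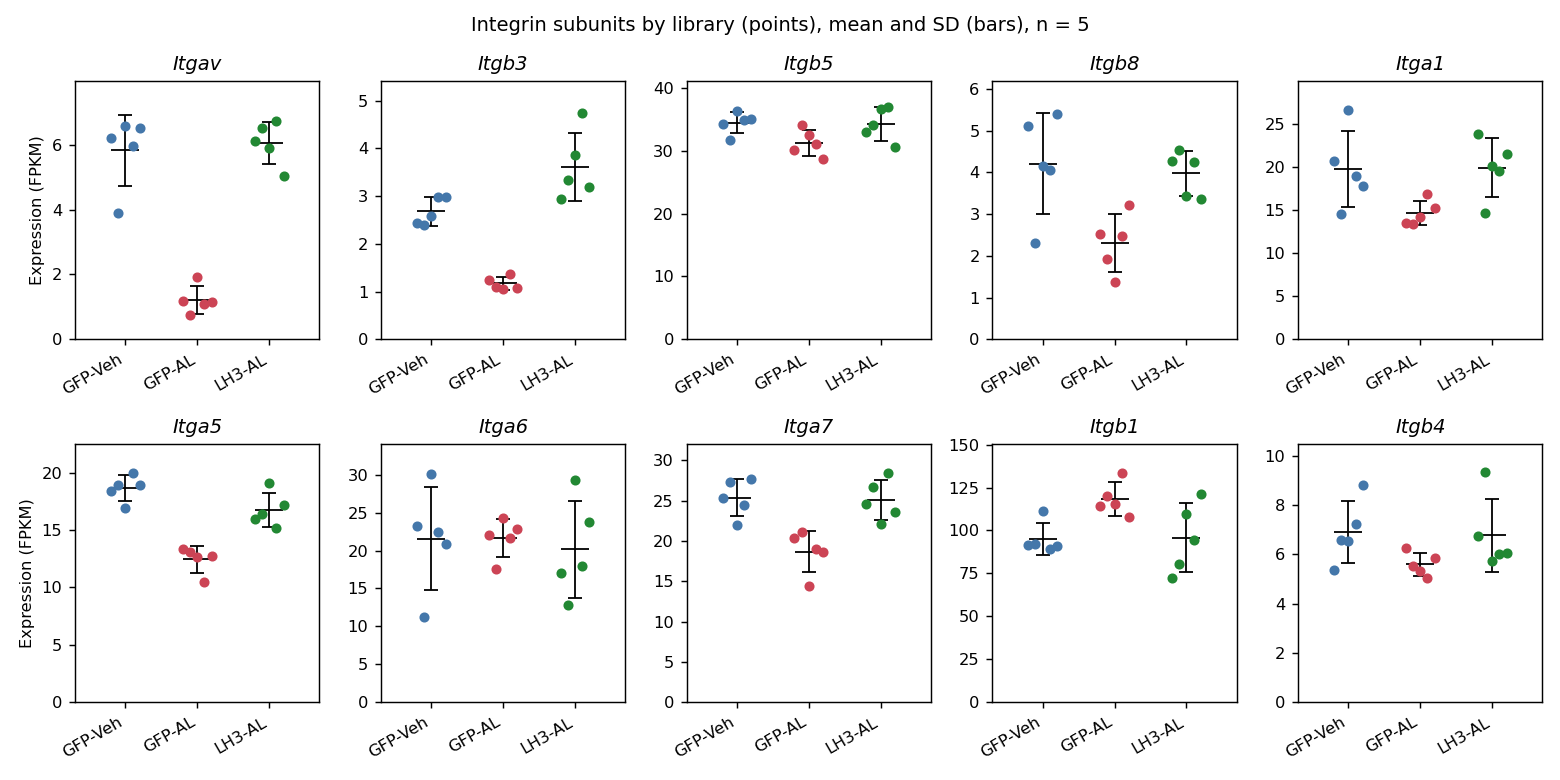
Expression in FPKM (vertical axes, each from 0) of the 10 integrin subunits in the 3 groups. Points are the 5 libraries of a group in order of replicate number, and bars give the mean and SD. The GFP-AL points of Itgav and Itgb3 lie below every point of the other groups, and those of Itgb1 lie between 108 and 134 FPKM.

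The first comparison set GFP-AL against GFP-Veh, with the virus shared and the drugs differing. Itgav, the common alpha chain of the vitronectin receptors, fell most, from 5.83 to 1.22 FPKM, and its partners Itgb3 and Itgb8 fell with it while Itgb5 did not pass the test. Among the beta 1 partners, Itga5, the fibronectin receptor chain, and Itga7, a laminin receptor chain of muscle cells, fell. No subunit passed the test as higher. Mean Itgb1 was higher, at 118 against 95.1 FPKM, without passing it (limma log2 difference 0.31, 95% interval 0.04 to 0.59, adjusted p = 0.0808). By limma at an adjusted p below 0.05, 5 of the 10 were lower and 0 higher, against 28.6% of all genes tested called in either direction (10.8% higher and 17.7% lower). The 5 libraries of the groups did not overlap for 4 of the 10, against 16.7% of all genes. The median log2 difference of the 10 was -0.41, beside -0.09 over all genes.

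The second comparison set LH3-AL against GFP-AL, with both groups on the drugs and the virus differing. Itgav was higher by 1.69 on the log2 scale, from 1.22 to 6.06 FPKM, and Itgb3, Itgb8, Itga5 and Itga7 were higher too, each of the 5 that the drugs had lowered. Itga1, a collagen receptor chain, was called only in this comparison of the 2, and whether its 2 differences differ in size was not tested. In all, 6 of 10 were higher and 0 lower, against 28.5% of all genes called in either direction (17.0% higher and 11.4% lower). For 5 of the 10 the groups did not overlap, against 19.4% of all genes. The median log2 difference was 0.40 for the 10 and 0.08 over all genes. Both comparisons share the GFP-AL libraries, so that a low value there lowers the first difference and raises the second. The share of all genes called in opposite directions was 20.1%, and 12.2% were called lower and then higher, as those 5 of 10 were.

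**Figure D2:**
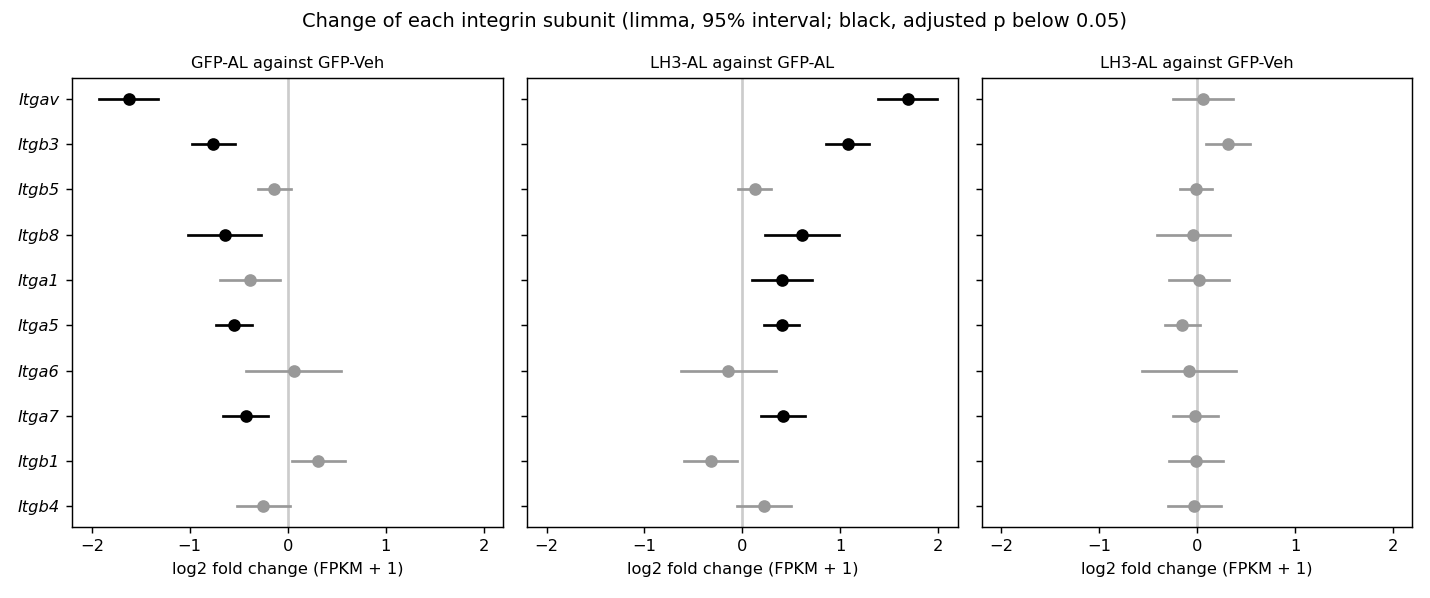
Difference of each integrin subunit in the 3 comparisons on the log2(FPKM + 1) scale (horizontal axis), with 95% intervals from limma. Black marks an adjusted p below 0.05. Black points stand left of 0 in the first comparison and right of 0 in the second, and no point is black in LH3-AL against GFP-Veh.

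Itgav (ENSMUSG00000027087, chr2:83724397-83806916 on GRCm38, plus strand) read 6.20, 3.89, 6.57, 5.97 and 6.50 FPKM in GFP-Veh replicates 1 to 5. It read 1.18, 0.753, 1.92, 1.09 and 1.14 in GFP-AL and 6.12, 6.51, 5.89, 6.73 and 5.04 in LH3-AL. Every GFP-AL library was thus below every other library, and the GFP-Veh and LH3-AL ranges overlapped. The GFP-Veh mean was 4.79 times that of GFP-AL, a difference of -1.63 ± 0.14 (SE) on the log2(FPKM + 1) scale (limma, adjusted p = 6.04e-06). Only 29 of the 13082 genes had a lower log2 difference. In LH3-AL the mean was 4.98 times that of GFP-AL (limma log2 difference 1.69 ± 0.14, adjusted p = 7e-06), and 18 genes had a higher log2 difference. In bulk tissue, fewer cells of a type that carries Itgav and less Itgav RNA per cell cannot be told apart, which holds for every gene below.

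Itgb3 (ENSMUSG00000020689, chr11:104608000-104670476, plus strand) codes for beta 3, which pairs with alpha v in vessel cells and with alpha IIb in platelets. It read 2.43, 2.39, 2.60, 2.99 and 2.99 FPKM in GFP-Veh replicates 1 to 5, 1.25, 1.11, 1.06, 1.37 and 1.08 in those of GFP-AL, and 2.94, 3.35, 3.86, 4.74 and 3.19 in those of LH3-AL. GFP-AL lay wholly below both other groups, and 4 of the 5 LH3-AL libraries lay above all GFP-Veh libraries. By limma it fell by 0.76 ± 0.11 (SE) on the log2 scale with the drugs (adjusted p = 0.000125) and was 1.08 ± 0.11 higher with the LH3 virus (adjusted p = 2.1e-05). The LH3-AL mean was 3.08 times the GFP-AL mean.

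Itgb8 (ENSMUSG00000025321, chr12:119158022-119238802, minus strand) codes for the beta chain that presents latent TGF-beta. It read 5.12, 2.30, 4.16, 4.05 and 5.40 FPKM in GFP-Veh replicates 1 to 5, 2.52, 1.93, 1.38, 2.48 and 3.21 in those of GFP-AL, and 4.27, 4.54, 3.44, 4.25 and 3.37 in those of LH3-AL. GFP-Veh replicate 2, at 2.30 FPKM, lay inside the GFP-AL range, so the groups overlapped, while LH3-AL lay wholly above GFP-AL. By limma the log2 difference was -0.65 ± 0.18 in the first comparison (adjusted p = 0.0133) and 0.61 ± 0.18 in the second (adjusted p = 0.0196). Without GFP-AL replicate 3 the second call was lost (0.50, adjusted p = 0.0508, in a range of 0.0114 to 0.0508 over 18 alternative settings).

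Itgb5 (ENSMUSG00000022817, chr16:33829665-33949338, plus strand) codes for beta 5, an alpha v partner, and was the most abundant here of Itgb3, Itgb5 and Itgb8. It read 34.3, 31.8, 36.4, 34.9 and 35.1 FPKM in GFP-Veh replicates 1 to 5, 30.2, 34.1, 32.5, 31.1 and 28.7 in those of GFP-AL, and 33.0, 34.2, 36.6, 37.0 and 30.6 in those of LH3-AL. All 3 ranges overlapped. Between GFP-AL and GFP-Veh the limma log2 difference was -0.14 with a 95% interval of -0.30 to 0.03 (adjusted p = 0.203), and between LH3-AL and GFP-AL it was 0.13 with an interval of -0.04 to 0.29 (adjusted p = 0.234). These intervals do not reach the estimates for Itgav, Itgb3 or Itgb8, and the difference between the genes was not tested. Itgav amounted to 0.168 ± 0.0260 (SD) of Itgb5 (both in FPKM) for GFP-Veh, 0.0390 ± 0.0133 for GFP-AL and 0.177 ± 0.0132 for LH3-AL (n = 5 each). GFP-AL ratios lay between 0.0221 and 0.0592 and those of the other libraries between 0.123 and 0.190.

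Of the alpha chains that pair with beta 1, Itga5 (ENSMUSG00000000555, chr15:103344286-103366763, minus strand) read 18.4, 19.0, 16.9, 20.0 and 18.9 FPKM in GFP-Veh. It read 13.3, 13.1, 12.6, 10.4 and 12.8 in GFP-AL and 15.9, 16.4, 19.1, 15.2 and 17.1 in LH3-AL. GFP-AL was below all other libraries, and the LH3-AL mean of 16.7 ± 1.5 stood between 12.5 ± 1.17 in GFP-AL and 18.7 ± 1.12 in GFP-Veh (SD, n = 5). In limma the log2 difference was -0.55 ± 0.09 (adjusted p = 0.000335) and then 0.40 ± 0.09 (adjusted p = 0.00378). Between LH3-AL and GFP-Veh it was -0.15 with an interval of -0.33 to 0.03, which did not pass the test (adjusted p = 0.647).

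Itga7 (ENSMUSG00000025348, chr10:128933818-128958282, plus strand) codes for the laminin receptor chain of smooth and skeletal muscle. It read 25.4, 27.3, 22.0, 24.5 and 27.8 FPKM in GFP-Veh replicates 1 to 5, 20.4, 21.1, 14.4, 19.0 and 18.6 in those of GFP-AL, and 24.6, 26.7, 22.2, 28.5 and 23.6 in those of LH3-AL. GFP-AL again lay below all other libraries, with replicate 3 lowest. The limma log2 difference was -0.43 ± 0.11 (adjusted p = 0.00762) and then 0.41 ± 0.11 (adjusted p = 0.011).

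Itga1 (ENSMUSG00000042284, chr13:114953096-115101964, minus strand), the collagen IV receptor chain, read 20.7, 14.5, 26.6, 19.0 and 17.8 FPKM in GFP-Veh. It read 13.5, 13.4, 14.2, 16.8 and 15.3 in GFP-AL and 23.8, 14.6, 20.1, 19.6 and 21.5 in LH3-AL. GFP-Veh replicate 2 and LH3-AL replicate 2 lay inside the GFP-AL range, and the other libraries of those groups lay above it. In limma the log2 difference was -0.39 ± 0.15 with the drugs (adjusted p = 0.0579) and 0.41 ± 0.15 with the LH3 virus (adjusted p = 0.0464). The second call was lost in 13 of 19 alternative settings, with adjusted p from 0.0186 to 0.118, and the first was gained without GFP-Veh replicate 2 (-0.48, adjusted p = 0.0155) and without GFP-AL replicate 4 (adjusted p = 0.049). The first was also gained with the replicate number as a block (adjusted p = 0.0362).

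Itga6 (ENSMUSG00000027111, chr2:71745616-71858416, plus strand), the laminin receptor chain of endothelial cells, had the widest spread of the 10 for its mean within GFP-Veh and within LH3-AL (SD 31.4% and 31.8% of the mean), but not within GFP-AL (11.6%, against 35.3% for Itgav). It read 23.2, 11.2, 30.1, 22.4 and 20.9 FPKM in GFP-Veh replicates 1 to 5, 22.0, 17.6, 24.4, 21.7 and 22.8 in those of GFP-AL, and 17.1, 12.8, 29.3, 18.0 and 23.7 in those of LH3-AL. Replicate 2 was lowest and replicate 3 highest in each group, although over all genes the numbers do not pair the libraries, and all 3 groups overlapped. The limma log2 difference was 0.06 with an interval of -0.42 to 0.55 in GFP-AL against GFP-Veh and -0.15 in LH3-AL against GFP-AL (adjusted p = 0.86 and 0.654), and the first turned negative, at -0.14, without GFP-Veh replicate 2.

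Itgb1 (ENSMUSG00000025809, chr8:128685654-128733200, plus strand) was the one subunit whose values ran the other way at an unadjusted p below 0.05 in both comparisons. It read 91.7, 92.0, 112, 89.3 and 91.0 FPKM in GFP-Veh replicates 1 to 5, 114, 120.1, 116, 134 and 108 in those of GFP-AL, and 72.2, 80.7, 109.8, 94.7 and 121 in those of LH3-AL. GFP-Veh replicate 3 and LH3-AL replicates 3 and 5 lay inside the GFP-AL range. The limma log2 difference was 0.31 ± 0.13 (adjusted p = 0.0808) and then -0.33 ± 0.13 (adjusted p = 0.0702), so neither passed the test. With median-of-ratios scaling of the libraries the first was called (0.41, adjusted p = 0.0485), which made 5 lower and 1 higher of the 10, and without LH3-AL replicate 5 the second was called (-0.42, adjusted p = 0.0236).

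Itgb4 (ENSMUSG00000020758, chr11:115974709-116008412, plus strand), which joins alpha 6 to laminin and intermediate filaments, read 5.37, 6.58, 6.53, 7.22 and 8.80 FPKM in GFP-Veh. It read 6.25, 5.52, 5.33, 5.04 and 5.85 in GFP-AL and 6.74, 9.32, 5.73, 6.02 and 6.05 in LH3-AL. The groups overlapped, with LH3-AL replicate 2 highest of all, and the limma log2 differences of -0.25 and 0.22 did not pass the test (adjusted p = 0.158 and 0.204).

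The 10 transcripts summed to 234.6 ± 18.7 FPKM for GFP-Veh, 227 ± 9.52 for GFP-AL and 232 ± 24.0 for LH3-AL (SD, n = 5), and these totals overlapped. The make-up differed more. Itgb1 made up 38.7% to 43.6% of the sum over GFP-Veh libraries, 49.7% to 55.1% over GFP-AL and 34.9% to 47.5% over LH3-AL. Itga1, Itga5, Itga6 and Itga7, 4 of the alpha chains that pair with beta 1, summed to 0.899 ± 0.0778 of Itgb1 for GFP-Veh, 0.574 ± 0.0529 for GFP-AL and 0.879 ± 0.154 for LH3-AL. GFP-AL libraries ran from 0.508 to 0.642 and the others from 0.709 to 1.13. Itgav and alpha chains outside the 10 are not in this sum. One of these, Itga3, had means of 15.5 FPKM for GFP-Veh, 13.2 for GFP-AL and 17.2 for LH3-AL.

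**Figure D3:**
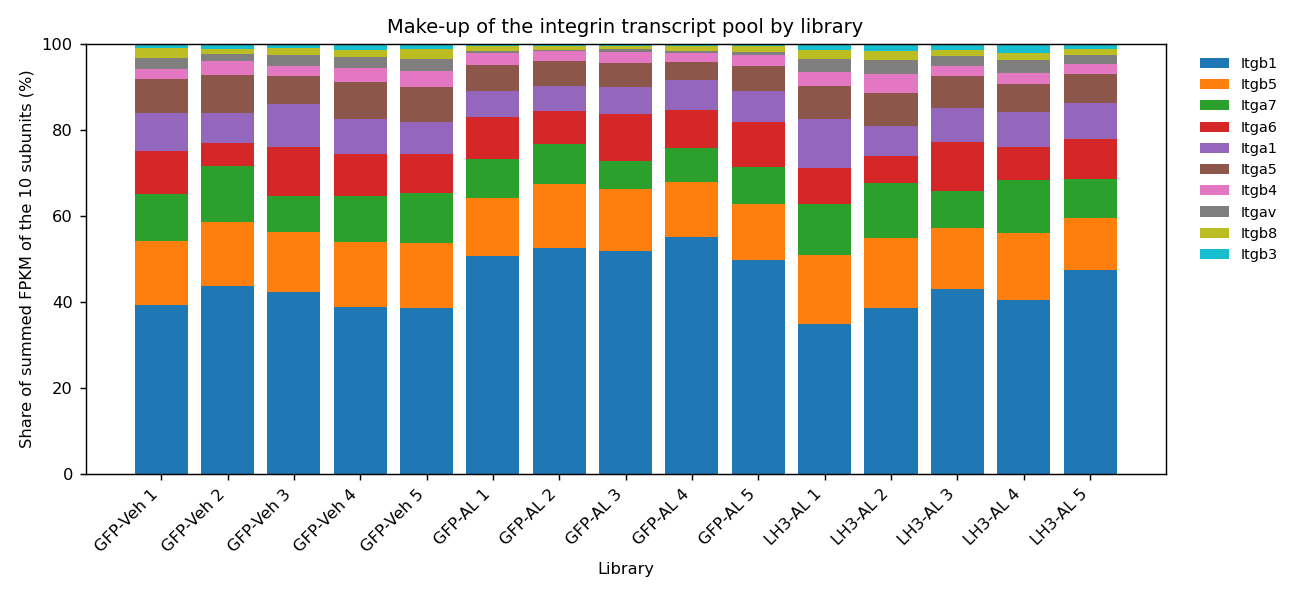
Share of each of the 10 subunits in their summed FPKM (vertical axis, percent) in each of the 15 libraries (horizontal axis). The Itgb1 share at the base of each bar is 49.7% to 55.1% in the GFP-AL libraries and at most 47.5% elsewhere.

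The third comparison set LH3-AL, the LH3 virus with drugs, beside GFP-Veh, the control virus with saline. None of the 10 subunits was called by limma, against 0.520% of all genes (0.145% higher and 0.375% lower), and none had groups without overlap, against 4.67% of all genes. At an unadjusted p below 0.05 there was 1 of 10, and 1180 of the 13082 genes. That subunit was Itgb3, at 0.32 with an interval of 0.10 to 0.54 (limma, adjusted p = 0.32). The intervals were -0.24 to 0.36 for Itgav, -0.41 to 0.34 for Itgb8 and -0.24 to 0.21 for Itga7, so differences of such sizes between these groups are not excluded. The median log2 difference was -0.01 both for the 10 and for all genes.

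Across the 15 libraries, log2(FPKM + 1) of Itgav and Itgb3 correlated at r = 0.914, a value that holds the difference between groups. As deviations from the group means the same pair gave r = 0.239. The deviations of Itga1 and Itga6 correlated at 0.728 and those of Itga6 and Itga7 at -0.629. GFP-Veh replicate 2 was the lowest of its group for 6 of the 10, Itgav, Itgb3, Itgb5, Itgb8, Itga1 and Itga6, and its summed choroid plexus markers were the highest of all libraries at 9185 FPKM, against 1971 to 5247 in the others. The part of that tissue in the low values was not tested.

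The genes most like each subunit over the 15 libraries were found by Pearson correlation among the genes tested, with other integrins and predicted genes left out. For Itgav they were the imprinted noncoding RNA Peg13 (r = 0.95), the sphingosine-1-phosphate phosphatase Sgpp2 (0.945) and the Akt phosphatase Phlpp1 (0.940). Mean Sgpp2 was 50.4 FPKM for GFP-Veh, 11.7 for GFP-AL and 48.1 for LH3-AL. For Itgb3 they were the collagen Col28a1 (0.946), Stxbp4 (0.932) and Vwa5b1 (0.921), and for Itgb8 Ubn2 (0.971), Rgs7bp (0.968) and the histone methyltransferase Kmt2a (0.967). For Itga5 they were Tecpr1 (0.919), Acrbp (0.899) and Proser3 (0.891), and for Itga7 Dcdc2b (0.961), the peroxisomal thiolase Acaa1a (0.953) and Akap8l (0.947). These libraries share groups and depth, and no 2 subunits had a gene of these in common.

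Among the other integrin subunits, Itgb2 and Itgam, the chains of the phagocyte receptor Mac-1, and Itga2b, the platelet partner of beta 3, were higher in GFP-AL than in GFP-Veh. Of 17 such subunits 9 were tested, and 3 were higher and 0 lower (33.3% called, near the 28.6% of all genes). The leukocyte chains Itga4 and Itgb7 were not called, with log2 differences of -0.12 and -0.18 (limma, adjusted p = 0.509 and 0.593). Itga2b read 0.719, 0.870, 0.524, 0.828 and 0.864 FPKM in GFP-Veh replicates 1 to 5, 3.27, 3.55, 3.59, 2.49 and 1.75 in those of GFP-AL, and 1.31, 0.993, 0.910, 0.715 and 1.37 in those of LH3-AL. Its GFP-AL libraries were the highest 5, where those of Itgb3 were the lowest 5. Itga2b passed the filter on low values through GFP-AL alone, since the other groups average 0.910 FPKM, so its place among the 9 is no separate evidence. In the limma fit with no filter, over all 22526 symbols, its log2 difference was 1.14 ± 0.14 (adjusted p = 0.000143) and then -0.92 ± 0.14 (adjusted p = 0.000968). With no filter 6 of the 17 were higher and 1 lower in GFP-AL, against 7.09% and 12.2% of all symbols. Itgb2 rose from 3.52 to 11.7 FPKM and was 3.94 in LH3-AL. Itgam, summed over the gene entries that share this symbol, rose from 3.04 to 9.59 FPKM and was 3.18 in LH3-AL. In LH3-AL against GFP-AL these 3 were lower (beside 11.4% of all genes). The laminin receptor chain Itga3 (0.36, limma adjusted p = 0.0145) and Itga8 (0.47, adjusted p = 0.029) were higher (beside 17.0% of all genes). In this comparison 55.6% of the 9 were called, beside 28.5% of all genes. Without Itga2b, the other 8 held 2 higher and 2 lower. The Itga8 call was lost in 8 of 18 alternative settings (adjusted p up to 0.196), and the Itga3 call without the 3 libraries that stood apart, GFP-AL replicates 2 and 3 and GFP-Veh replicate 2 (adjusted p = 0.0573).

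**Figure D4:**
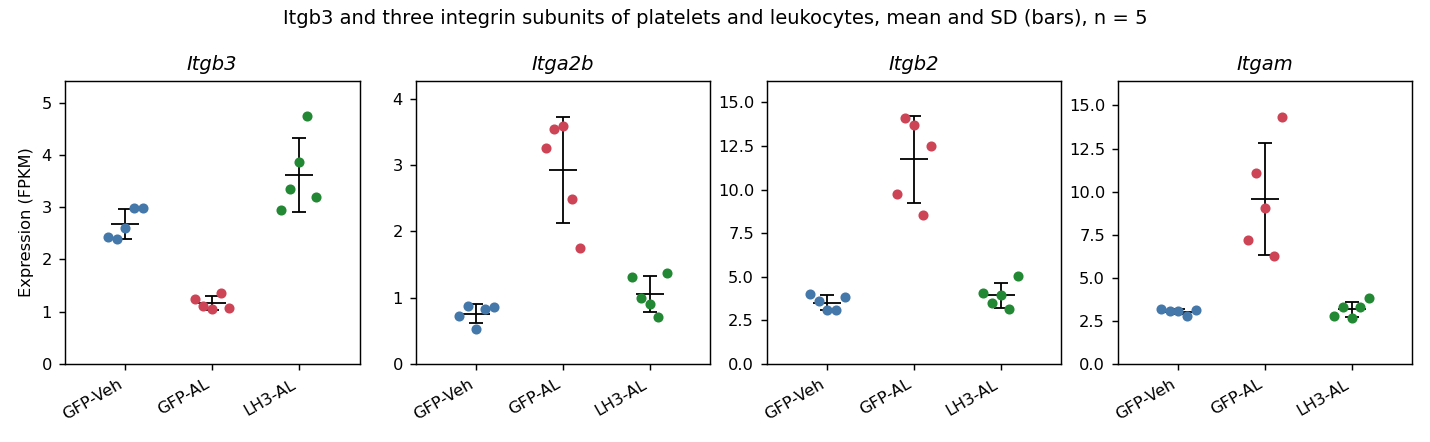
Expression in FPKM (vertical axes, each from 0) of Itgb3 and of the blood cell integrin chains Itga2b, Itgb2 and Itgam in the 3 groups, with points for the 5 libraries of a group and bars for mean and SD. The GFP-AL points are the lowest for Itgb3 and the highest for the other genes.

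The platelet, neutrophil, and microglia and macrophage markers that were called changed in the same directions as Itgb2, Itgam and Itga2b. Red cell markers were higher with the drugs but were not called lower with the LH3 virus. Beside the marker counts given here and for wall cells, limma called 10.8% of all genes higher and 17.7% lower with the drugs. With the LH3 virus added to the drugs, these shares of all genes were 17.0% and 11.4%. In the fit with no filter, 7.09% of all symbols were called higher with the drugs and 7.0% lower with the LH3 virus. The summed platelet markers ran from 8.73 to 20.6 FPKM over GFP-Veh libraries, 26.5 to 61.6 over GFP-AL and 13.1 to 29.3 over LH3-AL. This sum holds Itga2b itself and Treml1, so it is no separate evidence on Itga2b. Of the 7 markers, 1 was not tested and 2 (Itga2b and Treml1) passed the filter through GFP-AL alone. The other 4 were higher in GFP-AL than in GFP-Veh and lower in LH3-AL than in GFP-AL. With no filter 6 of 7 were higher and then 5 lower. The platelet collagen receptor Gp6 stayed below 1 FPKM in every library. The summed microglia and macrophage markers ran from 87.7 to 174, from 240 to 378 and from 118 to 137 FPKM, with 4 of 8 higher in GFP-AL and 5 lower again with the LH3 virus. Of 7 neutrophil markers 5 were tested without passing the filter through GFP-AL alone, and of these 3 were higher in GFP-AL and 5 lower with the LH3 virus (3 and 6 of 7 with no filter). Il1r2, which averaged 0.224 FPKM over the other groups, was left out, and Ly6g did not pass the filter and was not tested. All 6 red cell markers were higher in GFP-AL and 0 lower with the LH3 virus. In LH3-AL against GFP-Veh 2 of these 6 were called higher, against 0.145% of all genes. The part of these cells in the Itgb2, Itgam and Itga2b values was not tested.

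Markers of the cells that make up the wall did not all fall with the wall integrins. The summed endothelial markers were 2617 to 3686 FPKM over GFP-Veh libraries, 3675 to 5723 over GFP-AL and 2347 to 3856 over LH3-AL, and of 10 markers 5 were higher and 2 lower in GFP-AL. The summed smooth muscle markers were 704 to 1193, 620 to 778 and 633 to 923 FPKM, with 1 of 8 lower in GFP-AL. The summed pericyte markers were 1401 to 1773, 842 to 1424 and 1338 to 1664 FPKM, with 2 of 8 lower. Rgs5 (mean 847 in GFP-Veh and 549 in GFP-AL) and Vtn (417 and 288 FPKM) were the largest parts of this sum. The means of Abcc9, Higd1b, Notch3 and Ndufa4l2 were also lower in GFP-AL. Those of Pdgfrb (57.0 and 65.9) and Kcnj8 (29.25 and 33.7 FPKM) were higher. With the drugs limma called 70.0% of endothelial, 12.5% of smooth muscle and 25.0% of pericyte markers, beside 28.6% of all genes. Choroid plexus markers were lower in GFP-AL at 5 of 7 and oligodendrocyte markers at 5 of 7, while 2 of 7 astrocyte markers were lower and 1 higher, and 0 of 6 fibroblast and 0 of 7 neuron markers were called. With the LH3 virus, the counts against GFP-AL were 1 higher and 4 lower for endothelial markers, 0 for smooth muscle, 1 higher for pericyte, 1 higher for fibroblast, 1 higher and 1 lower for astrocyte, 3 higher for oligodendrocyte, 4 higher for choroid plexus and 0 for neuron markers. The part of the pericyte, choroid plexus and oligodendrocyte shares in the lower Itgav, Itgb3, Itgb8, Itga5 and Itga7 values was not tested.

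Ligands of these receptors changed in both directions. Of 40 integrin ligand genes 38 were tested, and 10 were higher and 6 lower in GFP-AL than in GFP-Veh, against 10.8% and 17.7% of all genes (median log2 difference 0.07, beside -0.09 over all genes). Of the 38, 3 passed the filter through 1 group alone, and the other 35 held 10 higher and 5 lower. Among those that rose were Spp1, coding for the alpha v ligand osteopontin (from 30.9 ± 7.38 to 115 ± 35.1 FPKM), Vwf, the von Willebrand factor (from 29.5 ± 5.02 to 102 ± 33.8), and Ctgf, the matricellular protein CCN2 (from 36.7 ± 7.17 to 121 ± 28.5). Those that fell included Col4a1 and Col4a2, which code for the chains of the vascular type IV collagen (log2 difference -1.16 and -1.01; limma adjusted p = 4.43e-05 and 0.000841), and the laminin chain Lama3 (-0.91, adjusted p = 0.000893). Vitronectin (Vtn), also expressed by pericytes and counted among the pericyte markers above, fell from a mean of 417 to 288 FPKM in the drug-treated GFP mice (-0.51, limma adjusted p = 0.0111). Fibronectin (Fn1) rose from 75.3 to 112 FPKM (0.55, limma adjusted p = 0.0246). These last 2 genes were chosen after their values were seen. The Vtn call was lost with depth as a covariate (limma adjusted p = 0.0951), and the Fn1 call was lost in 5 of 19 settings, among them those without GFP-AL replicate 4, GFP-Veh replicate 4 or GFP-Veh replicate 5 (adjusted p = 0.0588, 0.0568 and 0.0613).

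With the LH3 virus 6 ligands were higher and 7 lower than in GFP-AL, against 17.0% and 11.4% of all genes (median log2 difference -0.13, beside 0.08 over all genes). Without the 3 ligands that passed the filter through 1 group alone, the other 35 held 5 higher and 7 lower. Col4a1 was higher by 1.31, Col4a2 by 1.46 and Lama3 by 1.14 on the log2 scale (limma, adjusted p = 3.48e-05, 8.68e-05 and 0.000275). Mean Lama3 was 3.65 ± 0.832 FPKM for GFP-Veh, 1.5 ± 0.563 for GFP-AL and 4.40 ± 0.605 for LH3-AL (SD, n = 5). Spp1 (-1.51), the platelet and vessel protein thrombospondin 1 (Thbs1, -1.63) and Tgfbi (-1.34), a ligand induced by TGF-beta, were lower by limma, with adjusted p = 0.000359, 0.000535 and 0.000547. In Vtn and Fn1 the log2 differences of 0.29 and -0.18 did not pass the test (limma, adjusted p = 0.12 and 0.44), although with quantile normalization Vtn was called (0.62, adjusted p = 0.00302) in a range of 0.00302 to 0.256 over 19 settings, and Fn1 turned to 0.045. Set against GFP-Veh, LH3-AL had 0 of 38 ligands called by limma, against 0.520% of all genes. At an unadjusted p below 0.05 by limma there were 5 of 38, beside 1180 of the 13082 genes.

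Of 32 adaptors and activators, which link the integrin tail to actin, 31 were tested, and in GFP-AL 5 were higher and 4 lower, a share of 29.0% that is near the 28.6% of all genes. The higher genes with the smallest p were the kindlin of blood cells, Fermt3 (from 5.62 to 14.7 FPKM, log2 difference 1.25), the talin recruiter of blood cells Apbb1ip (0.75), with limma adjusted p = 1.96e-05 and 0.000458, and the haematopoietic parvin Parvg. Parvg passed the filter through GFP-AL alone (0.851 FPKM over the other groups), and limma with no filter gave 0.69 (adjusted p = 0.00245). The other 30 adaptors and activators held 4 higher and 4 lower. The lower ones were led by vinculin (Vcl, from 51.9 ± 8.08 to 30.8 ± 6.18 FPKM; -0.75, limma adjusted p = 0.00204), the tensin Tns3 (-0.45) and the small GTPase Rap1a (-0.35), whose call was lost in 3 of 19 settings (adjusted p up to 0.127). In LH3-AL against GFP-AL 3 were higher and 8 lower (35.5% called, beside 28.5% of all genes). Without Parvg, the other 30 held 3 higher and 7 lower. Talin 2 (Tln2, 0.54), Tns3 (0.34) and the parvin Parva (0.29) were higher (limma, adjusted p = 0.00922, 0.0262 and 0.0302). Fermt3 (-1.17), zyxin (Zyx, -0.83) and Apbb1ip (-0.77) led the lower genes (limma, adjusted p = 4.93e-05, 8.59e-05 and 0.000505). The calls of Tns3 and Parva in this comparison were lost in 7 and 8 of 19 alternative settings (adjusted p up to 0.0779 and 0.149). Zyxin, a focal adhesion protein, was also lower in LH3-AL than in GFP-Veh, with means of 9.42 ± 0.589 and 14.2 ± 2.27 FPKM (-0.53, limma adjusted p = 0.0248), a call lost in 10 of 19 settings (adjusted p up to 0.328).

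All 12 integrin-associated membrane proteins were tested, and 4 were higher and 3 lower in GFP-AL (58.3% called, beside 28.6% of all genes). The tetraspanins Tspan4 (1.43) and Cd9 (1.12) and the urokinase receptor Plaur (1.88) were higher (limma, adjusted p = 5.5e-05, 8.83e-05 and 0.000295). Emp2 (-0.89), which associates with alpha v beta 3, and basigin (Bsg, -1.16), a partner of beta 1, were lower (limma, adjusted p = 2.19e-05 and 0.000893), as was Cd81 (-0.25, adjusted p = 0.0426, lost in 12 of 19 settings with p up to 0.19). With the LH3 virus 3 were higher and 4 lower (58.3%, beside 28.5%). Emp2 was higher by 0.57 and Bsg by 0.85 (limma, adjusted p = 0.000837 and 0.00794), and the thrombospondin receptor Cd47 by 0.27 (adjusted p = 0.0407, lost in 10 of 19 settings with p up to 0.11). Cd9 fell by 0.94 and Tspan4 by 0.90. Mean Plaur was 13.8 ± 2.0 FPKM for GFP-Veh, 58.1 ± 27.3 for GFP-AL and 4.19 ± 2.02 for LH3-AL, and fell by 3.47 on the log2 scale in LH3-AL against GFP-AL (limma, adjusted p = 6.94e-06). It was also lower in LH3-AL than in GFP-Veh (-1.59, limma adjusted p = 0.0204), a call lost in 9 of 19 settings (adjusted p up to 0.328).

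Of 17 matrix receptors that are not integrins 14 were tested, and 2 were higher and 3 lower in GFP-AL (35.7% called, beside 28.6% of all genes). The collagen receptor Ddr2 (from 6.39 ± 0.436 to 2.81 ± 1.66 FPKM), the sarcoglycan Sgce and the syndecan Sdc2 were lower, and the syndecan Sdc1 was higher, with limma adjusted p from 0.00553 to 0.0252. The hyaluronan receptor Cd44, also higher, passed the filter through GFP-AL alone (0.854 FPKM over the other groups), and limma with no filter gave 0.79 (adjusted p = 0.0247). The other 13 receptors held 1 higher and 3 lower. The Sdc2 call was lost in 4 of 19 settings (-0.21, adjusted p = 0.149, without the 3 libraries that stood apart, and 0.0544 without GFP-Veh replicate 1). With depth as a covariate the calls of Cd44 (adjusted p = 0.111) and Ddr2 (0.0582) were lost. With the LH3 virus 2 were higher, Ddr2 (1.05) and Sgce (0.28), and Sdc1 (-0.76) and Sdc4 (-0.59) were among 3 lower by limma, with adjusted p from 0.0121 to 0.0486 (35.7% called, beside 28.5% of all genes). The third was Cd44, at -1.05 with no filter (limma adjusted p = 0.00668). Without Cd44, the other 13 held 2 higher and 2 lower. The Ddr2 call was lost with the 2 groups alone (adjusted p = 0.0526). The calls of Sgce and Sdc4 were lost in 14 of 18 and 8 of 19 settings (adjusted p up to 0.221 and 0.0819).

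The TGF-beta genes were examined because alpha v integrins release the active cytokine from its latent complex. All 20 were tested, and in GFP-AL 4 were higher and 3 lower (35.0% called, beside 28.6% of all genes). Tgfb1 rose from 17.1 ± 2.45 to 38.8 ± 4.52 FPKM (1.14, limma adjusted p = 3.79e-05), as did Ltbp2, of the latent TGF-beta binding protein family (0.76, adjusted p = 0.000338). Ltbp4, of the same family, fell from 113 ± 11.4 to 51.5 ± 10.6 FPKM (-1.14, limma adjusted p = 2.74e-05), Tgfb2 from 10.1 ± 2.54 to 4.91 ± 1.03 (-0.89, adjusted p = 0.00319), and Tgfb3 fell by 0.53 on the log2 scale (adjusted p = 0.0195, lost in 3 of 19 settings with p up to 0.0923, and 0.0517 without GFP-AL replicate 3). With the LH3 virus 2 were higher, Ltbp4 (1.01) and Tgfb2 (1.33), against 17.0% of all genes, and 6 were lower, against 11.4%, among them Tgfb1 (-0.99) and the latent TGF-beta carrier Lrrc32 (-1.99), by limma with adjusted p from 0.000103 to 0.00108. Of the 20, limma called 0 between LH3-AL and GFP-Veh, against 0.520% of all genes. At an unadjusted p below 0.05 by limma there were 5 of 20, beside 1180 of the 13082 genes. At that level there were also 6 of 31 adaptors and activators and 3 of 12 membrane proteins. The other integrin subunits and the non-integrin receptors had 0.

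In the authors' deposited table for GFP-AL against GFP-Veh, 2 of the 10 subunits are listed, Itgav with a log2 fold change of -2.30 (q = 0.000366) and Itgb3 with -1.19 (q = 5.82e-05). The table lists 1763 genes, beside 22557 in the expression table. Among the subunits and pathway genes it lists, the smallest change was that of Col4a2, at -1.03. Calls here have no minimum fold change, so the number listed and the number called are not like for like. A second deposited table, of 1746 genes, is named for LH3-AL against GFP-Veh and lists the same 2 subunits, Itgav at 2.38 (q = 0.00015) and Itgb3 at 1.61 (q = 8.31e-05). Over the 995 genes tested here that this table of the authors' also lists, its signs matched the LH3-AL against GFP-AL fit at 100% of genes and the LH3-AL against GFP-Veh fit at 56.2%. Its values are therefore set beside LH3-AL against GFP-AL.

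Some exon sequence is shared with other annotated genes, and a strand setting for the counting was not given in the sources used here. Itgav shares 634 bases (5.9% of its exon length) with Gm13684 on the opposite strand, Itga1 685 bases (3.7%) with Gm49395 on the same strand, and Itgb4 537 bases (7.7%) with the noncoding RNA B230344G16Rik on the opposite strand. The group means of the last were 0.959, 1.26 and 1.00 FPKM (GFP-Veh, GFP-AL, LH3-AL), against 5.60 to 6.90 for Itgb4. Reads in these stretches cannot be assigned to either gene.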

How the data were processed

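Vessels were isolated by homogenising perfused brains and washing away neurons, myelin and loose cells, and total RNA was sequenced, per the labels' protocols. STAR 2.5.1b and the build mm8 stand in the submitters' processing notes; a counter and a strand setting were not given in the sources used here. Per the file headers, the authors deposited FPKM values (22557 genes, 15 libraries). Of these values 5.99% were below 0, which FPKM cannot be, by a step not given in the sources used here. They were set to 0. Depth was estimated from the steps of low values, which were too seldom whole for a count test. The authors also deposited log2 fold changes, p-values and q-values for 2 contrasts, per the file headers.

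Gene identifiers were matched to GENCODE M21 on GRCm38 (22419 of 22557), and rows sharing a symbol were summed (31 symbols, among them Itgam and Ltbp4). Groups came from the library titles. Tests used limma (version 3.58.1, R 4.3.3) with an intensity trend on log2(FPKM + 1) of all 15 libraries. Genes averaging 1 FPKM or more (13082) entered, and Benjamini-Hochberg adjustment ran over all of them. An adjusted p below 0.05 is a call. A gene that falls below that mean when 1 group is left out is said to pass through that group alone, and its p comes from the fit with no filter. Such fold changes understate the change of low genes. The script was tested on simulated data. The 10 subunits, the 6 pathway lists (138 genes, of which 124 were tested) and the 12 marker lists were chosen with earlier results of these data known. Named genes were all 10 subunits, Plod3, up to 3 called genes each way per pathway list and comparison by smallest p (all where 5 or fewer were called), and for each subunit called both ways the 3 genes with the highest correlation, other integrins and predicted genes left out. A result that this rule selects is not reported here. Alternatives were median-of-ratios and quantile scaling, a filter at a mean of 5 FPKM or none, 0.1 as the pseudocount, the 2 compared groups alone, the replicate number as a block, depth as a covariate, removal of GFP-AL replicates 2 and 3 and GFP-Veh replicate 2, which earlier results showed to stand apart, and removal of each library in turn.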

Additional observations from a re-analysis of the deposited data

Results flagged for a closer look

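Of 30 sets of 5 libraries (10 subunits in 3 groups), 4 held a library far from the other 4 by Dixon's ratio of the gap to the whole range, above the 95% limit of 0.71. Chance gives about 1 in 20 such sets. Itgav was lowest in GFP-Veh replicate 2 at 3.89 FPKM, with the nearest library at 5.97 and a ratio of 0.777. Itga5 was lowest in GFP-AL replicate 4 at 10.4 FPKM, next to 12.6 (ratio 0.752). Itgb1 was highest in GFP-Veh replicate 3 at 112 FPKM, next to 92.0 (ratio 0.877). Itgb4 was highest in LH3-AL replicate 2 at 9.32 FPKM, next to 6.74 (ratio 0.720). Without GFP-Veh replicate 2 the difference of Itgav between GFP-AL and GFP-Veh stayed called, within a range of -1.74 to -1.55 on the log2 scale over the removals of single libraries.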

How the results depend on the processing

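Itgav, Itgb3, Itga5 and Itga7 kept their direction and call in GFP-AL against GFP-Veh and in LH3-AL against GFP-AL under all 18 or 19 alternatives, as did Itgb8 in the first of these. A minimum mean of 5 FPKM left 2 calls in place of 5, and 3 in place of 6, because Itgav, Itgb3 and Itgb8 fall below it. Leaving out single libraries gave 5 to 6, 4 to 6 and 0 called subunits in the 3 comparisons. With depth as a covariate Itga6 turned to -0.057 in GFP-AL against GFP-Veh, and without the 3 libraries that stood apart to -0.106 (-0.144 to 0.193 without single libraries), and Itgb5 was called there (-0.22, limma adjusted p = 0.0468).

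In LH3-AL against GFP-Veh no subunit was called under any alternative, and signs near 0 changed. With median-of-ratios scaling Itgb5 was 0.007, Itga7 0.001 and Itgb1 0.007, and with quantile normalization 0.032, 0.03 and 0.039. Without the 3 libraries Itgav was -0.055, Itga1 -0.075 and Itga7 0.01. Without single libraries the ranges were -0.055 to 0.116 (Itgav), -0.04 to 0.028 (Itgb5), -0.191 to 0.047 (Itgb8), -0.075 to 0.131 (Itga1), -0.289 to 0.059 (Itga6), -0.066 to 0.025 (Itga7), -0.103 to 0.083 (Itgb1) and -0.135 to 0.053 (Itgb4).

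Pathway genes called in GFP-AL against GFP-Veh numbered 47, and 31 with depth as a covariate, where ligands went from 16 to 9, adaptors from 9 to 5 and non-integrin receptors from 5 to 2. In LH3-AL against GFP-Veh the 2 called, Zyx and Plaur, became 0 with depth as a covariate, 0 with the replicate block, and 0 to 1 without single libraries. Other integrins called went from 3 to 7 without a filter in GFP-AL against GFP-Veh and up to 5 without a single library, and from 5 to 8 without a filter and 3 at 5 FPKM in LH3-AL against GFP-AL. In that comparison ligands went from 13 to 7 with the 2 groups alone (7 to 16 without single libraries), and non-integrin receptors from 5 to 2 with the 2 groups alone, 2 at 5 FPKM and 3 without the 3 libraries (3 to 6 without single ones). At 5 FPKM non-integrin receptors in GFP-AL against GFP-Veh were 2. Causes other than the filter were not tested.

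Of 71 calls or values of named pathway genes 51 kept their side of the threshold in every alternative, and 1 changed sign, Fn1 in LH3-AL against GFP-AL (0.045 with quantile normalization). With median-of-ratios scaling the called pathway genes in GFP-AL against GFP-Veh were 34 higher and 13 lower, beside 28 and 19, and all genes 1843 and 1702, beside 1416 and 2321. In LH3-AL against GFP-AL all genes were 1765 higher and 1895 lower, beside 2227 and 1496. The replicate numbers do not pair the libraries: of 15 same-numbered pairs, 5 had correlated deviations above 0.1 (range -0.261 to 0.286), and in 8 of 30 cases (each library set against each other group) a library correlated best with its own number. The replicate block changed no subunit call but that of Itga1 (-0.385, limma adjusted p = 0.0362, in GFP-AL against GFP-Veh). Depth limits the low subunits most, since Itgav and Itgb3 were near 1 FPKM in GFP-AL.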
